A study of Mus musculus with 12 samples.

Results

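MHC class II molecules present peptides of proteins taken up by a cell to CD4+ T cells, and are best known from dendritic cells, macrophages and B cells, although many other cells can make them after interferon gamma. The α and β chains are assembled on the invariant chain Cd74, which cathepsins trim until only a short fragment holds the groove, and H2-DM then exchanges that fragment for a peptide. In the nucleus, the RFX complex (Rfx5, Rfxap and Rfxank) and NF-Y bind the X and Y boxes of these promoters, and Ciita, which itself binds no DNA, is recruited to them and switches transcription on. The genes described here are the chains H2-Aa, H2-Ab1 and H2-Eb1, the invariant chain Cd74, the peptide exchange genes H2-DMa, H2-DMb1 and H2-Oa, the protease Ctss, and the regulators Ciita and Rfx5. A gene was measured by the brightest probe set, by its mean over all arrays, among those paired with its symbol alone. By this rule 9 of the 10 genes were measured, of 19938 genes in all, and each of the 9 had 1 such probe set. H2-DMb1 lies on a probe set shared with H2-DMb2 and has no value here.

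RNA was measured in tumor cells sorted from the brains of 12 mice, with 1 Affymetrix array per mouse. In 6 mice the tumors came from the pEGFR-Hi line and in 6 from the pEGFR-Lo line, which carry high and low EGFRvIII activity. Both lines were made from Ink4a/Arf-null mouse neural progenitor cells that carry EGFRvIII, an EGFR without its ligand-binding part, and both were passaged through mice, tagged with ZsGreen, and injected into the brains of syngeneic FVB mice at 2 µl of 200000 cells per µl. Brains were taken near the median survival of each group, which was shorter for pEGFR-Hi, so the line and the time after injection cannot be told apart, and each group stands for 1 line. Values are log2 after RMA, which gives all arrays the same distribution, so that a change in total RNA cannot be seen, and a difference of 1 is 2-fold. Background was set at 4.10, below which 95% of 1027 olfactory receptor genes had their mean, since these cells are not expected to use such genes. Levels of different genes come from different probes and are not compared.

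As a check of the sorted cells, 9 of 10 neural progenitor and glioma markers were above background in all 12 mice. The mean level of the 10 was 8.57 to 8.89 in pEGFR-Hi and 9.15 to 9.37 in pEGFR-Lo. Of these markers 2 were called lower in pEGFR-Hi and 0 higher, beside 5.06% and 3.99% of all genes. Both lines come from neural progenitor cells, so this does not check which tumor type an array belongs to. Of 21 microglia and macrophage markers, 8 were at or below background in every mouse, among them Csf1r, Aif1, Itgam, Ptprc and Adgre1, and 6 were above it in every mouse, namely Cx3cr1, P2ry12, Tmem119, Sall1, Trem2 and Cd68. Between the tumor types 1 of the 21 was called higher in pEGFR-Hi, Cd68 (6.48 against 5.24 in pEGFR-Lo), and 1 lower, P2ry12 (4.69 against 6.43 in pEGFR-Lo). These counts are near the shares over all genes, of which 3.99% were called higher and 5.06% lower. The summed log2 value of all 21 was 82.9 to 86.4 in pEGFR-Hi and 83.6 to 94.1 in pEGFR-Lo. Of 11 dendritic cell, 6 B cell and 9 T and NK cell markers, 6, 5 and 7 were at or below background in every mouse, including Itgax, Flt3, Ms4a1 and Cd3d, while the dendritic cell markers Zbtb46, Ccr7, Batf3, Cd80 and Cd40 and the T cell marker Cd3e were above it in every mouse. Cdkn2a, which encodes Ink4a and Arf, read 5.07 to 5.43 in pEGFR-Hi and 5.24 to 5.63 in pEGFR-Lo, but where its probes lie relative to the deletion is unknown here, so that this reading checks nothing. In pooled sorted cells, fewer cells that make a transcript and less of it per cell cannot be told apart. Any pair of arrays correlated at 0.991 to 0.994 within pEGFR-Hi and at 0.985 to 0.993 within pEGFR-Lo.

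The promoters of class II genes carry the sequence that Ciita acts through, and the reference promoters (RefSeq, GRCm38.p6, the 300 bases from 250 before to 50 after the start of transcription) were therefore read for it. The motif searched on both strands was GNAAC, a part of the X box, followed after 20 to 40 bases by TGATTGG, the Y box that NF-Y binds. Promoters were found for 7 of the 10 genes, and 4 of these genes held the pair, against 0.648% of 27025 genes with a promoter. The motif was chosen after these sequences had been seen, so this contrast is a description and no test. In the windows below, read 5′ to 3′ along each gene, the capitals mark these 2 motif parts and not the whole X box.
H2-Aa: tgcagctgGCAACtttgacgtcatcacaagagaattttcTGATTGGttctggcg
H2-Eb1: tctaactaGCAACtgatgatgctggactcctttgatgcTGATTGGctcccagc
H2-DMb1: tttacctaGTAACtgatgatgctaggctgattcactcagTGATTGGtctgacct
H2-Oa: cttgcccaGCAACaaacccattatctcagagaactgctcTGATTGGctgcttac
H2-Eb2: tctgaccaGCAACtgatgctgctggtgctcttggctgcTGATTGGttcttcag
H2-Ob: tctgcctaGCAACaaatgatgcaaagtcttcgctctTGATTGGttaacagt
The windows lie at chr17:34287859-34287912 (minus strand) for H2-Aa, chr17:34305768-34305820 (plus) for H2-Eb1, chr17:34153089-34153142 (plus) for H2-DMb1, chr17:34092295-34092348 (plus) for H2-Oa, chr17:34325535-34325587 (plus) for H2-Eb2 and chr17:34238810-34238860 (plus) for H2-Ob. The last 2 are β chain genes shown because their values are given below. The 2 marked parts were 26 bases apart in H2-Aa, H2-DMb1 and H2-Oa, 25 bases apart in H2-Eb1 and H2-Eb2, and 23 in H2-Ob. The pair was not in these windows of H2-DMa, Rfx5 and Ctss, although Rfx5 held the Y box alone, as did 7.82% of all promoters with or without the X box. Such matches are descriptions of the reference sequence, and binding was not measured.

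Sorted cells of both tumor types held transcripts of the class II chains, Cd74 and H2-DMa above background in every mouse, and what differed between the groups was mainly their spread. In pEGFR-Hi, levels varied little between mice. In pEGFR-Lo they fell into a wide range, with replicates 3 and 6 far below the other 4 mice and replicates 4 and 5 at the top. Of the 9 genes, 6 varied at least 4-fold over the pEGFR-Lo mice, against 0.692% of all genes, and none did over the pEGFR-Hi mice, against 0.171% of all genes. With all mice compared, 0 of the 9 genes passed the limits for a difference between the groups, against 9.05% of all genes.

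H2-Aa encodes the α chain of the I-A molecule. It had a lowest value of 8.95, a median of 9.20 and a highest value of 9.35 in pEGFR-Hi, against 7.07, 9.38 and 10.14 in pEGFR-Lo. The pEGFR-Lo mice lay on both sides of the pEGFR-Hi mice, 2 of them below, at 7.47 in replicate 3 and 7.07 in replicate 6, and 3 above. H2-Ab1, the β chain of I-A, had 8.21, 8.62 and 8.94 in pEGFR-Hi (lowest, median and highest), against 6.36, 8.40 and 9.59 in pEGFR-Lo. Here 3 pEGFR-Lo mice were below every pEGFR-Hi mouse, with replicates 3 and 6 at 6.75 and 6.36, and 2 were above, with replicates 4 and 5 at 9.50 and 9.59. H2-Eb1, the β chain of I-E, had 6.31, 6.62 and 6.86 in pEGFR-Hi, against 5.27, 6.53 and 7.37 in pEGFR-Lo, and 3 pEGFR-Lo mice were below and 3 above all pEGFR-Hi mice.

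Cd74, the invariant chain, had 9.66, 10.02 and 10.38 in pEGFR-Hi (lowest, median and highest), against 8.44, 10.57 and 11.74 in pEGFR-Lo. The range over mice was 1.64-fold in pEGFR-Hi and 9.79-fold in pEGFR-Lo, and replicates 3 and 6 of pEGFR-Lo stood at 8.65 and 8.44 while replicates 4 and 5 stood at 11.74 and 11.59. H2-DMa, the α chain of the peptide exchanger H2-DM, had 9.09, 9.42 and 9.60 in pEGFR-Hi, against 7.79, 10.11 and 10.66 in pEGFR-Lo. No pEGFR-Lo mouse was inside the pEGFR-Hi range of H2-DMa, since 2 were below it and 4 above it, the 4 at 9.98 to 10.66. H2-Oa, a chain of H2-O, the inhibitor of H2-DM known best from B cells, was near background, at 3.81 to 4.17 in pEGFR-Hi and 3.40 to 4.08 in pEGFR-Lo, and was above it in 1 mouse.

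Ciita had 6.54, 7.09 and 7.27 in pEGFR-Hi (lowest, median and highest), against 4.92, 6.50 and 7.27 in pEGFR-Lo. The pEGFR-Lo mice read 4.92 in replicate 3 and 5.26 in replicate 6, and 6.47, 6.74, 7.27 and 6.53 in replicates 1, 2, 4 and 5, so the same 2 mice were low as for the chains, and the low values were still above background. Rfx5, the DNA-binding subunit of RFX, varied little, at 6.29 to 6.50 in pEGFR-Hi and 5.88 to 6.35 in pEGFR-Lo, a 1.39-fold range in pEGFR-Lo against 5.08-fold for Ciita. Ctss, the cathepsin that makes the last cuts in Cd74 in dendritic cells and other professional presenting cells, was near background, at 3.52 to 4.26 in pEGFR-Hi and 3.74 to 4.52 in pEGFR-Lo, and was above it in 1 pEGFR-Hi mouse and 3 pEGFR-Lo mice. The broad order of the pEGFR-Lo mice was therefore alike for the chains, Cd74, H2-DMa and, apart from replicate 5, Ciita, and was not seen in Rfx5, where replicate 3 was at 6.27.

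**Figure D1:**
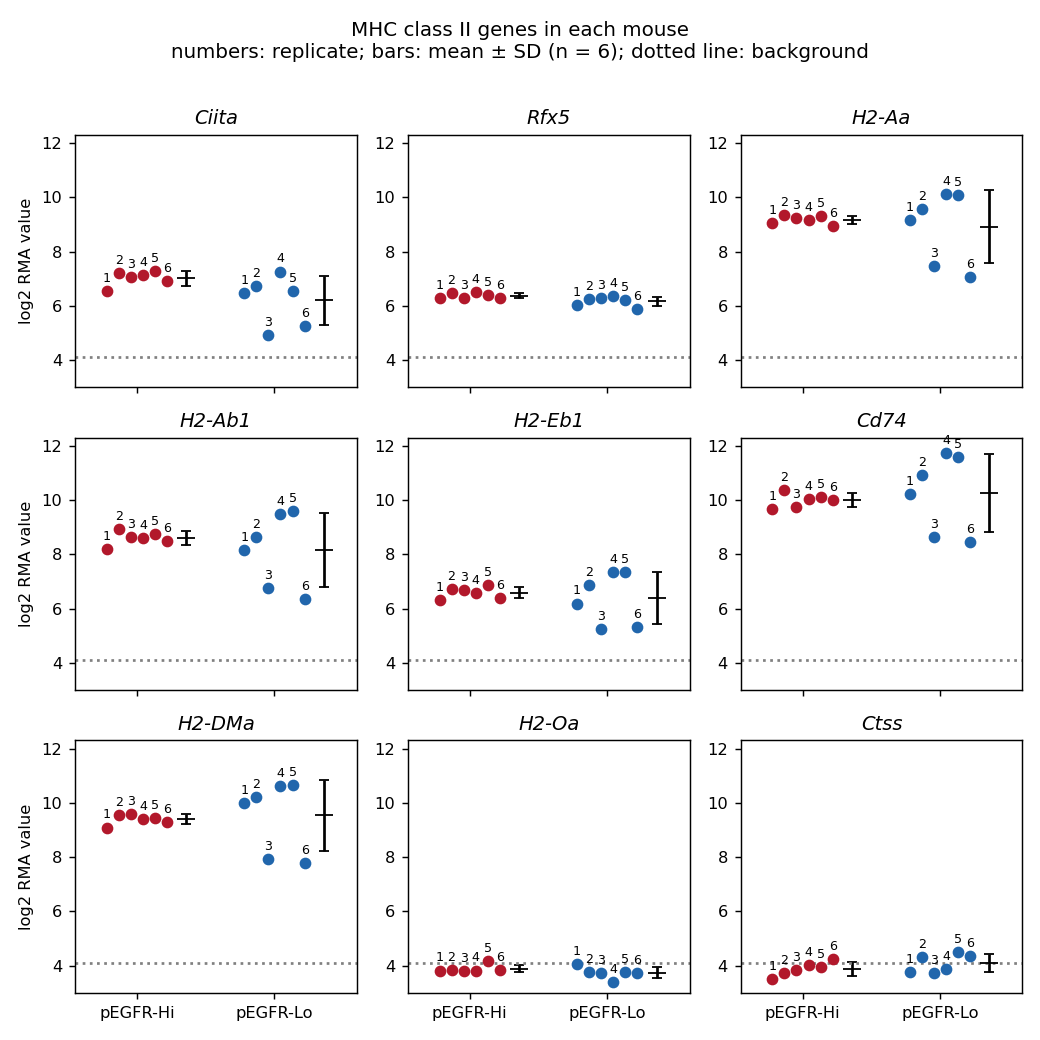
Log2 RMA values (y axis, one panel per gene) of the 9 measured genes in each of 6 pEGFR-Hi (left, red) and 6 pEGFR-Lo mice (right, blue), numbered by replicate, with mean ± SD beside them and background as a dotted line. In Ciita, the chains, Cd74 and H2-DMa, pEGFR-Lo replicates 3 and 6 lie below all other mice, while Rfx5 is nearly level and H2-Oa and Ctss sit around the background of 4.10.

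The comparison of the tumor types was made with limma over all 19938 genes, with p adjusted by Benjamini and Hochberg. The fit assumes an equal spread in both groups. The spreads differed for Ciita, the chains, Cd74 and H2-DMa, so their intervals and p-values depend on this assumption. Calls needed an adjusted p under 0.01 together with a 2-fold difference. At these limits 795 genes were higher and 1009 lower in pEGFR-Hi, which is 9.05% of all genes, and 0 of the 9 class II genes were called in either direction (0 also with SAM, and 2 at an unadjusted p under 0.05, as for 42.8% of all genes). Between groups that did not overlap, 0 of 9 were found, against 23.3% of all genes. The median difference of the 9 genes was 0.19 on the log2 scale, beside 0.01 over all genes. Ciita averaged 7.02 ± 0.27 in pEGFR-Hi and 6.20 ± 0.91 in pEGFR-Lo (mean ± SD of 6 mice), a difference of 0.82 (95% interval 0.14 to 1.49, adjusted p = 0.0577 from limma). Rfx5 averaged 6.38 ± 0.09 in pEGFR-Hi and 6.17 ± 0.18 in pEGFR-Lo, a difference of 0.21 (adjusted p = 0.0829 from limma). H2-Oa and Ctss, near background, differed by 0.14 and -0.21. For the chains, Cd74 and H2-DMa the intervals were wide and included 0. They ran from -0.70 to 1.20 for H2-Aa, from -0.54 to 1.42 for H2-Ab1, from -0.51 to 0.89 for H2-Eb1, from -1.08 to 0.80 for H2-DMa and from -1.30 to 0.76 for Cd74. A 2-fold difference in at least one direction is inside each of these intervals except that of H2-Eb1.

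Because replicates 3 and 6 of pEGFR-Lo set these values, the fit was repeated without them. They were left out with their values known, so the result describes the other mice and is no test of the tumor types. Against the 4 other pEGFR-Lo mice, Cd74 was lower in pEGFR-Hi, at 9.99 in pEGFR-Hi against 11.12 in those 4, a difference of -1.13 (95% interval -1.66 to -0.59, adjusted p = 0.00263 from limma), and was the 1 class II gene called, beside 8.59% of all genes. H2-DMa was at 9.40 in pEGFR-Hi against 10.37 in those 4, a difference of -0.97 (adjusted p = 8.98e-05 from limma), just under the 2-fold limit. H2-Aa differed by -0.57 (adjusted p = 0.0167 from limma), and H2-Ab1 and H2-Eb1 by -0.37 and -0.36 with intervals that included 0. All 5 had a negative difference in this fit, against 2 of 5 with every mouse. Ciita kept a positive difference of 0.26, with an interval of -0.10 to 0.63.

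**Figure D2:**
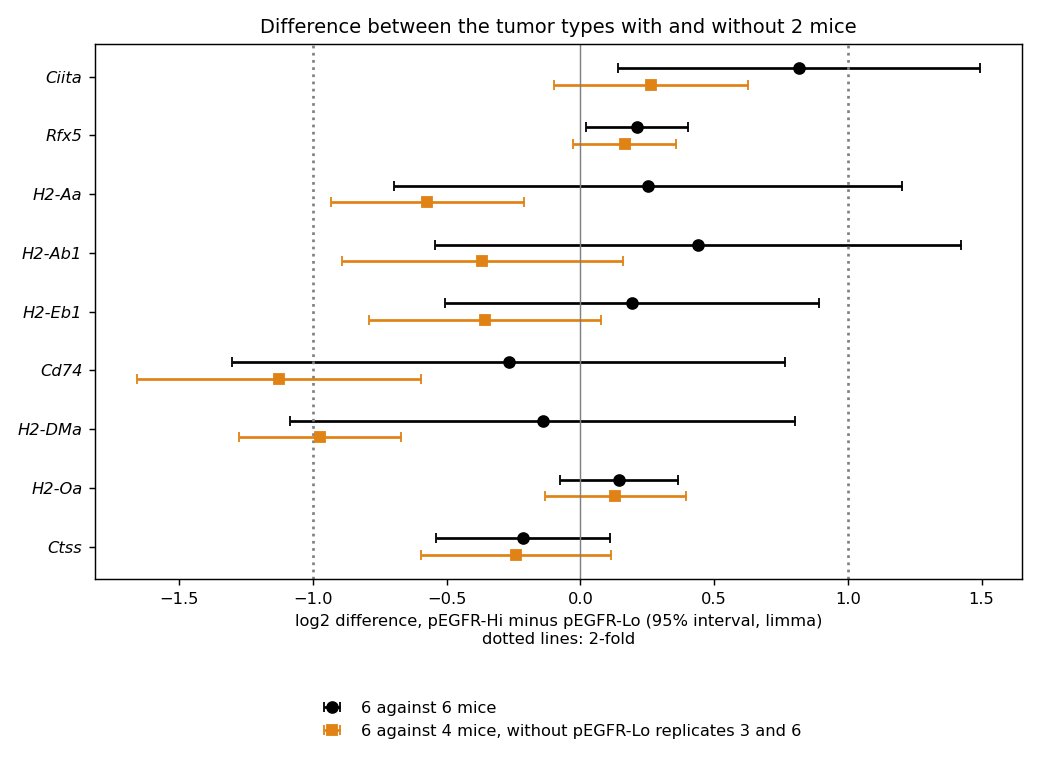
Log2 difference of pEGFR-Hi minus pEGFR-Lo (x axis) with its 95% interval from limma for each gene (y axis), over all 12 mice (black circles) and without pEGFR-Lo replicates 3 and 6 (orange squares). Without those 2 mice the chains move to the negative side. Cd74 and H2-DMa, negative in both fits, move further that way, and Cd74 passes the 2-fold line at -1.13.

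The link to Ciita was examined within each tumor type, as the slope of a gene on Ciita in limma over all other genes, in log2 units per log2 unit, with a gene called at an adjusted p under 0.05. A list of 8 class II genes entered, since Ciita cannot be set against itself, and with the 2 levels described below 52 such relations of the listed genes were computed. The same relations were also computed for the further chain genes described below. In pEGFR-Hi, where Ciita ranged only from 6.54 to 7.27, the slope was positive for all 8 genes, but 0 of 8 and 0% of all genes were called (at an unadjusted p under 0.05, 4 of 8 and 4.8% of all genes). The 4 were H2-Ab1 (slope 0.85 ± 0.23, SE), H2-Eb1 (0.70 ± 0.23), Cd74 (0.74 ± 0.29) and H2-DMa (0.57 ± 0.24), each with an adjusted p = 0.998 from limma. Replicate 1, with the lowest Ciita, moved several slopes by over 1.5 times. Without it the slope of Ctss was -0.96 instead of 0.37, those of H2-Aa, H2-Eb1, H2-Oa and Rfx5 were 0.96, 1.11, 0.65 and 0.47 instead of 0.42, 0.70, 0.25 and 0.22, and that of H2-DMa was 0.37 instead of 0.57. Without replicate 5 the slope of H2-Oa was 0.02, and 0 of 8 genes were called with any mouse left out. Over the 6 pEGFR-Hi mice, H2-Ab1 and Ciita had a Pearson r of 0.931 (two-sided exact permutation p = 0.00694) and a Spearman rho of 0.886 (exact permutation p = 0.0333). For H2-Eb1, r was 0.901 (exact permutation p = 0.00694) and rho was 0.943 (exact permutation p = 0.0167). These 2 of the 8 genes had the smallest exact p of r, and none of these p-values was adjusted. For the others r ran from 0.387 for Ctss (exact permutation p = 0.458) to 0.846 for H2-DMa (exact permutation p = 0.0403). Without replicates 1 and 6, the mice farthest from the median of Ciita, r was 0.649 for H2-Ab1, 0.718 for H2-Eb1 and 0.793 for Cd74, but -0.381 for H2-DMa, whose relation rests on those 2 mice.

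In pEGFR-Lo, H2-Aa, H2-Ab1, H2-Eb1, H2-DMa and Cd74 rose with Ciita, and Rfx5, H2-Oa and Ctss did not pass the test. These 5 of 8 genes were called, against 0.426% of all genes. The slope was 1.38 ± 0.17 for H2-Aa (SE, adjusted p = 0.00988 from limma), 1.38 ± 0.16 for H2-DMa (adjusted p = 0.00756 from limma) and 1.49 ± 0.18 for Cd74 (adjusted p = 0.00988 from limma). It was 1.37 ± 0.21 for H2-Ab1 and 0.97 ± 0.15 for H2-Eb1, with adjusted p-values of 0.0238 and 0.0252 from limma, while that of Rfx5 was 0.09 ± 0.09 (adjusted p = 0.947). The pEGFR-Lo mice fell into 2 clusters, replicates 3 and 6 and the other 4, so no correlation over all 6 is given. The calls rest on the gap between the clusters, and without replicate 3, without replicate 6 or without both, 0 of 8 genes were called. Without replicate 4, H2-Aa, H2-DMa and Cd74 were called. Within the 4 other mice the slopes were still positive, at 1.20 for Cd74, 0.95 for H2-Ab1, 0.84 for H2-Eb1, 0.73 for H2-Aa and 0.43 for H2-DMa, each with an interval that included 0 and an adjusted p of 1 from limma.

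Among those 4 mice, replicates 1 and 5 had Ciita values of 6.47 and 6.53 but differed in the class II genes. H2-Aa was at 9.18 in replicate 1 and 10.09 in replicate 5, H2-Ab1 at 8.15 and 9.59, H2-Eb1 at 6.19 and 7.37, and Cd74 at 10.22 and 11.59. Replicate 4, with the highest Ciita of pEGFR-Lo at 7.27, had H2-Aa, H2-Ab1, H2-Eb1 and Cd74 at 10.14, 9.50, 7.35 and 11.74, near those of replicate 5. In pEGFR-Hi, replicate 5 had the same Ciita value of 7.27, with H2-Aa at 9.30, H2-Ab1 at 8.76, H2-Eb1 at 6.86 and Cd74 at 10.13. Whether the slope on Ciita differs between the tumor types was tested by an interaction term in limma, for which 0 of 8 genes and 0.01% of all genes passed. The difference of slopes, pEGFR-Hi minus pEGFR-Lo, was -0.96 ± 0.52 for H2-Aa, -0.80 ± 0.49 for H2-DMa and -0.75 ± 0.57 for Cd74 (SE, unadjusted p = 0.0849, 0.12 and 0.214, adjusted p = 0.9995 for each from limma).

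**Figure D3:**
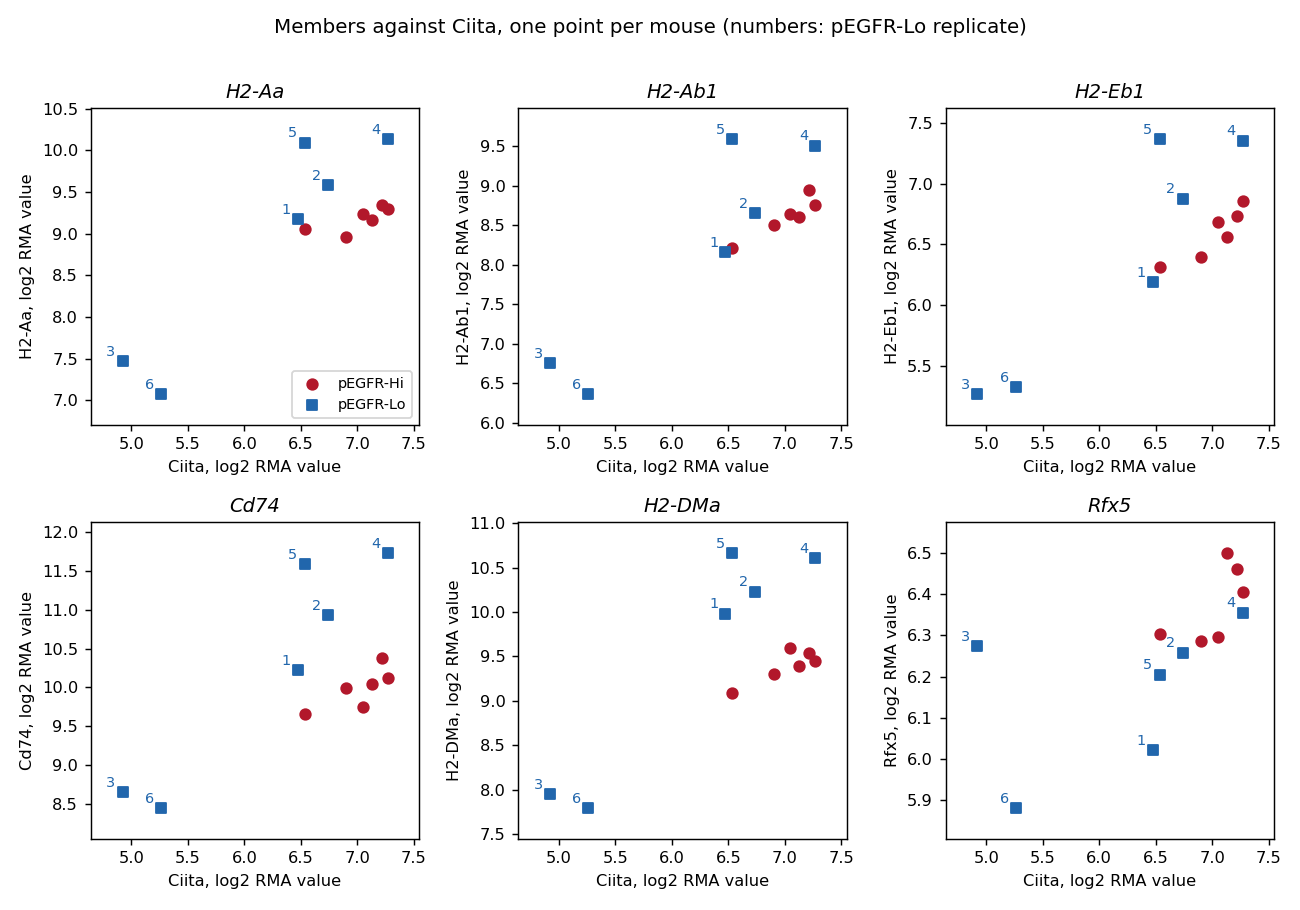
Log2 RMA value of 6 class II genes (y axes) against that of Ciita (x axes), one point per mouse, with pEGFR-Hi as red circles and pEGFR-Lo as blue squares numbered by replicate. In the chains, Cd74 and H2-DMa, pEGFR-Lo replicates 3 and 6 form a separate cluster at low Ciita, and replicates 1 and 5 differ in level at nearly equal Ciita (6.47 and 6.53).

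Other steps of the pathway were read from fixed lists. Of 3 further chain genes, 0 were called between the tumor types, beside 9.05% of all genes, and 0 had an unadjusted p under 0.05, beside 42.8%. H2-Ea is named for the α chain of I-E, but whether a working chain is made from this gene in FVB cells was not tested. The RNA read by its probe set followed the other chains, with 6.02 to 6.84 in pEGFR-Hi, against 4.88 and 4.30 in the 2 low pEGFR-Lo mice, replicates 3 and 6, and 6.30 to 7.61 in the 4 others. It rose with Ciita in pEGFR-Lo (slope 1.34 ± 0.21, SE, adjusted p = 0.029 from limma). This call too was lost without replicate 3, 4 or 6 (adjusted p = 0.182, 0.11 and 0.193 from limma) and with a robust, trended prior (0.0606), and without replicates 3 and 6 together the slope was 0.71 (95% interval -0.81 to 2.24, adjusted p = 1). H2-Eb2 had 4.11 to 5.33 in pEGFR-Hi, against 7.32 and 7.57 in replicates 4 and 5 of pEGFR-Lo and 3.79 to 5.40 among its 4 other mice. H2-Ob, the partner of H2-Oa, averaged 4.10 in pEGFR-Hi and 3.86 in pEGFR-Lo. These genes resemble each other in sequence, and how far their probes read each other's RNA was not tested.

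Of the 6 other factors of the X and Y boxes, 0 were called, beside 9.05% of all genes. At an unadjusted p under 0.05 there were 2 of 6, beside 42.8%, and 2 of 6 did not overlap, beside 23.3%. Nfyc and Nfyb, subunits of NF-Y, did not overlap between the groups, at 8.30 to 8.75 and 7.78 to 8.40 in pEGFR-Hi, against 7.68 to 8.11 and 7.30 to 7.73 in pEGFR-Lo. Their differences of 0.61 ± 0.10 and 0.54 ± 0.11 (SE, adjusted p = 1.57e-04 and 0.00127 from limma) were under 2-fold. Rfxank, a subunit of RFX, averaged 6.89 ± 0.14 in pEGFR-Hi and 6.74 ± 0.19 in pEGFR-Lo (SD). Over the 6 factors, pEGFR-Lo replicates 3 and 6 were not low as they were for Ciita, since the list's mean read 7.55 and 7.56 there, within the 7.52 to 7.59 of their group.

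Of 10 genes of lysosomal proteolysis and surface turnover, 1 was higher in pEGFR-Hi, 0 were lower, and 9 did not pass, beside 3.99% of all genes called higher and 5.06% called lower. The 1 was Ctsh, a cathepsin, at 5.05 to 5.57 in pEGFR-Hi against 3.73 to 4.56 in pEGFR-Lo, a difference of 1.10 ± 0.14 (SE, adjusted p = 9.70e-06 from limma). The groups did not overlap for 4 of the 10 genes, beside 23.3% of all genes. Ctsd and Ctsl, cathepsins of the endosome and lysosome, were among them, at 10.39 to 10.65 and 8.86 to 9.06 in pEGFR-Hi, against 11.14 to 11.34 and 9.18 to 9.50 in pEGFR-Lo, but the differences of -0.75 and -0.44 were under 2-fold. Ctsl, which trims Cd74 in the thymic epithelium, was thus above background in all mice, in contrast to Ctss.

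On the route by which interferon gamma induces Ciita, 0 of 9 measured genes were called, beside 9.05% of all genes, and 6 of 9 had an unadjusted p under 0.05, beside 42.8%. Ifng itself, the cytokine, was near background, averaging 3.93 in pEGFR-Hi and 4.04 in pEGFR-Lo. Ifngr2, a chain of its receptor, was at 9.26 to 9.59 in pEGFR-Hi against 8.51 to 8.77 in pEGFR-Lo, with no overlap and a difference of 0.76 ± 0.08 (SE, adjusted p = 2.03e-06 from limma), under 2-fold. It was the 1 of 9 genes without overlap, beside 23.3% of all genes. Irf2, a factor that binds the Ciita promoter, was at 8.24 to 8.73 in pEGFR-Hi, against 7.17 and 7.70 in replicates 3 and 6 of pEGFR-Lo and 8.11 to 8.27 among its 4 other mice. Usf1, another factor of that promoter, was at 6.21 to 6.74 in pEGFR-Hi and 6.67 to 7.12 in pEGFR-Lo. Irf1, on the same list, was at 9.03 to 9.52 in pEGFR-Hi. In pEGFR-Lo it was at 6.97 and 6.83 in replicates 3 and 6 and 8.84 to 9.42 in the 4 others. The mean of the 8 genes of this list above background was 7.34 and 7.29 in replicates 3 and 6. It was 7.77 to 7.85 in the 4 others and 7.90 to 8.11 in pEGFR-Hi.

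MHC class I presentation and interferon genes were low in the same 2 mice. The mean level of 14 class I presentation genes was 9.77 to 9.99 in pEGFR-Hi, against 8.11 and 8.12 in replicates 3 and 6 of pEGFR-Lo and 9.56 to 9.68 elsewhere in that group. Calls higher in pEGFR-Hi were 2 of these 14 genes, beside 3.99% of all genes, with 12 not passing, and the 2 were Tap1, which pumps peptides into the endoplasmic reticulum (1.66 ± 0.46, SE, adjusted p = 0.00889 from limma), and Psme1, an activator of the proteasome (1.12 ± 0.24, adjusted p = 0.0015). Without pEGFR-Lo replicates 3 and 6, 0 of the 14 were called. Tap1 and Psme1 then differed by 0.79 and 0.69 (adjusted p = 8.75e-06 and 1.83e-04 from limma), under the 2-fold limit. Of 7 IRG and GBP genes, GTPases induced by interferon gamma, 1 was higher in pEGFR-Hi, beside the same 3.99% (Gbp9, 1.33 ± 0.37, adjusted p = 0.00899), and 0 were without those mice. Gbp9 then differed by 0.64 (adjusted p = 8.84e-04 from limma), also under the 2-fold limit. The 21 interferon-stimulated genes had a mean level of 7.90 to 9.0 in pEGFR-Hi, against 5.30 and 5.27 in replicates 3 and 6 of pEGFR-Lo and 6.47 to 7.04 among its 4 other mice, with 18 of 21 called higher in pEGFR-Hi, beside 3.99% of all genes, including Trim30a, Irf7 and Dhx58. Mx1, among those called, entered this level only through pEGFR-Hi. It averaged 5.41 there, against 3.59, below background, in pEGFR-Lo.

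Class II and interferon-stimulated genes therefore differed in how the groups stood. The interferon-stimulated level of every pEGFR-Hi mouse was above that of every pEGFR-Lo mouse. The class II level, taken as the mean of H2-Aa, H2-Ab1, H2-Eb1 and Cd74, was 8.31 to 8.85 in pEGFR-Hi, against 7.04 and 6.80 in pEGFR-Lo replicates 3 and 6, 8.43 and 9.01 in replicates 1 and 2, and 9.68 and 9.66 in replicates 4 and 5. Within pEGFR-Lo, Ciita, H2-Aa and H2-DMa rose with the interferon-stimulated level, and these 3 of 9 genes were called, against 0.456% of all genes (at an unadjusted p under 0.05, 6 of 9 and 6.69% of all genes). Their slopes were 1.04 ± 0.14, 1.46 ± 0.23 and 1.48 ± 0.20 (SE, adjusted p = 0.00826, 0.029 and 0.0112 from limma), and 0 of 9 were called without replicate 3, without replicate 6 or without both. In the 4 other mice the slopes of H2-Aa and H2-DMa were negative, at -0.80 and -0.71. That of Ciita was positive, at 0.60, and all 3 intervals included 0. Within pEGFR-Hi 0 of 9 were called, against 0.0953% of all genes.

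The microglia and macrophage marker level, the mean of the 11 such markers above background, was 4.68 to 5.0 in pEGFR-Hi and 4.85 to 5.50 in pEGFR-Lo. Within pEGFR-Lo the highest value, 5.50, was in replicate 6, which had the lowest H2-Aa, H2-Ab1, H2-DMa and Cd74. Replicate 3, the other low mouse, read 5.02, inside the 4.85 to 5.22 of the 4 others. Laptm5 entered this level only through pEGFR-Lo, where it averaged 4.11 with replicate 6 at 5.14, against 3.56 in pEGFR-Hi. On this level 0 of 9 genes and 0% of all genes were called in either tumor type, and at an unadjusted p under 0.05 there was 1 of 9, Ctss in pEGFR-Lo (slope 1.19 ± 0.43, SE, adjusted p = 0.756 from limma), beside 6.31% of all genes. Over all 6 pEGFR-Lo mice the slopes of H2-Eb1 and Cd74 on it were negative, at -0.63 ± 1.49 and -1.68 ± 2.17. Without replicates 3 and 6 the sign turned, to 2.65 ± 0.91 and 2.95 ± 1.24 in the other 4 mice (SE, adjusted p = 0.74 for both from limma), and the part of such cells in these values was not tested.

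**Figure D4:**
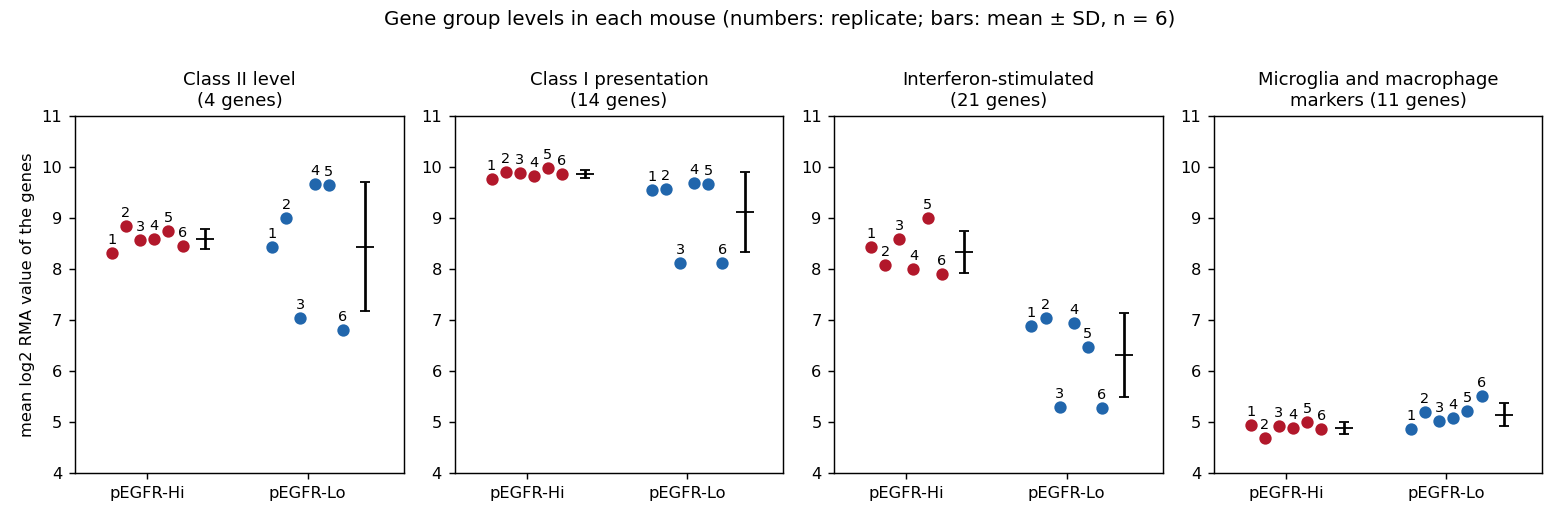
Mean log2 RMA value (y axis) of 4 class II genes, 14 class I presentation genes, 21 interferon-stimulated genes and 11 microglia and macrophage markers in each of 6 pEGFR-Hi (left, red) and 6 pEGFR-Lo mice (right, blue), numbered by replicate, with mean ± SD. In pEGFR-Lo, replicates 3 and 6 are low in the first 3 panels, and among those 3 panels replicates 4 and 5 exceed all pEGFR-Hi mice for class II alone. In the last panel replicate 3 (5.02) is within the range of the 4 others and replicate 6 (5.50) is the highest.

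The genes most like Ciita and most like the class II level were sought among 13776 other genes above background, by Pearson correlation over the 12 arrays after each value was centred on the mean of its tumor type. These correlations are descriptions, and in pEGFR-Lo they share the gap to replicates 3 and 6. With Ciita they were H2-Q4 (0.95), Mlkl, Cxcl9, Psmb10, Lgals3bp and Plaat3 (0.941), of which Cxcl9 is a chemokine that interferon gamma induces and Psmb10 a subunit of the immunoproteasome. Cxcl9 read 8.74 to 9.44 in pEGFR-Hi, against 3.35 and 3.54, below background, in replicates 3 and 6 of pEGFR-Lo and 5.52 to 8.27 among its 4 other mice. With the class II level they were H2-M3 (0.995), H2-T10 (0.985), H2-Ea (0.982), Casp1 (0.982), Tap2 (0.978) and Batf2 (0.975), of which H2-M3 and H2-T10 are nonclassical class I genes and Tap2 is a chain of the peptide pump. H2-M3 read 8.04 to 8.44 in pEGFR-Hi, against 5.38 and 4.97 in pEGFR-Lo replicates 3 and 6, 6.56 and 7.25 in replicates 1 and 2, and 8.04 and 8.06 in replicates 4 and 5, so its pEGFR-Lo order was that of the class II level apart from replicates 4 and 5, whose values nearly tie in both, but its values there did not exceed the pEGFR-Hi range.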

How the data were processed

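Tumor cells had been dissociated enzymatically, freed of myelin and red cells on Percoll, and sorted for ZsGreen with dead cells excluded by DAPI, per the study's methods. The authors deposited log2 values of Affymetrix Mouse Gene 1.0 ST arrays made by RMA in Affymetrix Expression Console, per the labels, whose version is not given there. RMA equalizes the arrays' distributions, and array medians were 4.81 to 4.88. There were no missing values and 0 identical arrays. Groups and replicate numbers came from the labels. The methods give 6 mice per group, and p-values measure the spread between mice of 1 line.

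Of the probe sets, 21789 had 1 gene symbol, 1621 several and 12146 none in the platform annotation, and symbols of 21698 were updated by Entrez ID to RefSeq. No source used here names a genome build for the arrays, and printed coordinates belong to the RefSeq promoters. Probes follow the reference strain, while class II genes are polymorphic and the mice were FVB. Tests used limma 3.58.1 (lmFit, eBayes) in R 4.3.3 over all genes with Benjamini-Hochberg adjustment, with SAM (100 permutations, the methods' test) as an alternative. Both were tested on simulated arrays. Exact permutation tests used all 720 orders of 6 mice in Python 3.11.15, and figures matplotlib 3.10.9. Named genes were the members, up to 3 of each pathway, class I, interferon-stimulated or IRG and GBP list with the smallest adjusted p, and the 6 genes most like Ciita and the class II level. Ctsh and H2-Ob meet this rule, while Ifng, Irf1, cell type markers and Cdkn2a were named after their values were seen. The members, lists and comparisons were chosen with earlier results of these data known, and the promoter motif after the sequences had been seen. The number of arrays limits the precision. Replicate numbers did not pair the mice, as described below.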

Additional observations from a re-analysis of the deposited data

Results flagged for a closer look

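Of 52 sets of 6 mice (a gene or a level in 1 tumor type) examined by Dixon's criterion, 3 had a mouse past its limit for 6 values on the gap to the next mouse over the range, where chance gives about 1 in 20. H2-Oa was 4.17 in pEGFR-Hi replicate 5, with the next mouse at 3.86 (gap over range 0.866), and no other of the 12 mice was above background. H2-Ob was 4.60 in pEGFR-Hi replicate 2, with the next mouse at 4.11 (0.692). The mean of the 2 T and NK cell markers above background, Cd3e and Cd8a, was 4.70 in pEGFR-Lo replicate 5, with the next mouse at 4.49 (0.692). The same level was 4.76 and 4.71 in pEGFR-Hi replicates 5 and 1, of which replicate 1 had the lowest class II level of pEGFR-Hi (8.31). The 2 low mice of pEGFR-Lo shield each other in this criterion, so Ciita, the chains and Cd74 were not past it.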

How the results depend on the processing

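The count of 0 class II genes called between the tumor types held under SAM, array weights, trended and robust eBayes, quantile normalization, median centring, dropping dim genes, averaging probe sets, an adjusted p limit of 0.05 at any fold, and leaving out each mouse. Without pEGFR-Lo replicates 3 and 6 it was 1 (Cd74). Genes called over all numbered 1804, 1768 to 1864 with a mouse left out and 7185 with no fold limit. Signs turned where single pEGFR-Lo mice were left out. With 1 mouse left out, H2-Aa ranged from -0.12 to 0.49, H2-Eb1 from -0.032 to 0.39, H2-DMa from -0.49 to 0.084 and Cd74 from -0.63 to 0.026. H2-Aa and H2-Eb1 were negative without replicate 3 or 6, H2-DMa positive without 4 or 5, and Cd74 positive without 4. Without replicates 3 and 6 together H2-Aa, H2-Ab1 and H2-Eb1 were -0.57, -0.37 and -0.36. Members related to Ciita in pEGFR-Lo ranged from 0 to 5 with a mouse left out and were 0 without both low mice. Those related to the interferon-stimulated level in pEGFR-Lo ranged from 0 to 5 against 3, and were 0 without both low mice (this alternative was chosen after seeing the data). There H2-Aa and H2-DMa turned to -0.80 and -0.71, while Ciita kept a positive slope of 0.60. At an unadjusted p under 0.05, 4 genes were related to Ciita in pEGFR-Hi, and in pEGFR-Lo 6 to the interferon-stimulated and 1 to the microglia level. Same-numbered mice correlated at -0.17 to 0.12 after centring, and 1 of 6 correlated best with its own number. The numbers therefore did not pair mice between the tumor types. Whether the numbers carry an order or batch within a tumor type was not tested, since only mice of different tumor types were compared. With the replicate block, 1809 genes and 0 class II genes were called. The cause of these changes was not tested beyond the mice left out.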
